A study of Mus musculus with 147 samples.

Results

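The core and naive pluripotency factors described here are *Pou5f1*, *Nanog*, *Sox2*, *Utf1*, *Zfp42*, *Esrrb*, *Tfcp2l1*, *Klf2*, *Klf4* and *Klf5*. They were picked by gene symbol, which makes 10 of the 31053 rows of the UMI (unique molecular identifier) count table, and all 10 had a row. They were followed through single mouse cells of the male germ line, sequenced with a modified STRT-seq protocol at 28 time-points from embryonic day (E) 6.5 over postnatal days (PND) to the adult. All cells used were wild type (WT), and all animals came from one cross, of C57BL/6 females with BVSC males that carry the *Prdm1*(*Blimp1*)-mVenus and *Dppa3*(*Stella*)-ECFP reporters. Cells of E6.5 and E7.5 came from gates named EPIrandom and FACSrandom, and germ cells of E8.5 to E18.5 from a reporter-positive gate (BVSC), from whole digested embryos up to E10.5 and from gonads later. Somatic cells came from a gate named Negative, used here from E11.5. In later gonads the mVenus signal faded and the positive gate rested on *Stella*-ECFP. Cells after birth had no fluorescence gate and were picked by their germ cell shape, apart from DNA-content gates (1N, 2N and 4N) at PND30. The labels give no sex for E6.5 to E9.5 or for replicates 1 and 2 of E10.5, while the methods describe a choice of male embryos by PCR at E10.5 and E11.5.

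In textbook terms, *Pou5f1*, *Nanog* and *Sox2* encode the core transcription factors that hold epiblast and embryonic stem cells in the pluripotent state. *Utf1*, *Zfp42*, *Esrrb*, *Tfcp2l1*, *Klf2*, *Klf4* and *Klf5* encode chromatin and transcription factors around this core, and most of them mark the naive state of the early blastocyst and of mouse embryonic stem cells rather than the primed state of the epiblast after implantation. Primordial germ cells (PGCs) arise from the epiblast and again use many of these factors, and male PGCs enter mitotic arrest in the fetal testis before they become prospermatogonia and, after birth, spermatogonia.

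The cells of one time-point and biological replicate are called a pool, and levels are UMIs scaled to a total of 1000000 for that pool and cell class (CPM), with the pools of a time-point given in replicate order. After the study's filter on genes and UMIs, 11598 of 11896 WT cells remained, with a median of 284518 UMIs per cell. The 147 libraries of the whole table, which also holds other cells, draw on a common set of 96 cell barcodes by design. Each barcode was found in 130 to 142 of the libraries. Clusters made without the 10 genes were named from marker genes. The epiblast-like cluster was used from replicate 1 of E6.5 alone, and 82 of the germ cells of E10.5 replicate 3 formed a cluster of their own. Of 25 clusters 6, with 818 cells, stayed unnamed, among them one led by Leydig cell genes that held most of adult replicate 1 one led by blood genes that held the BVSC cells of E17.5 replicate 1, and one led by haemoglobin genes that held 151 cells of PND8 replicate 1 and left 21 of that pool as germ cell-like. A doublet caller was not run. The germ line was covered by 58 pools and classes of 21 to 356 cells and 4482735 to 130461357 UMIs, with 1 pool of germ cell-like cells at E8.5 and at E17.5. Per the study's methods a prenatal pool joins several embryos or gonads and a postnatal one comes from a single animal. P-values measure the spread between pools, and where a side joins several time-points this spread includes the trend between them.

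Sequence before the RefSeq transcription starts (GRCm38.p6, up to 250 bases, 5′ to 3′ on the gene's strand) is shown for 4 genes that took different courses below: *Pou5f1* for the long decline, *Nanog* for the loss at arrest, *Zfp42* for its second high period and *Klf4* for the late rise. Capitals mark matches on either strand to an octamer (ATGCAAAT), a SOX core (CATTGT), an ESRRB motif (TCAAGGTCA), a TFCP2L1 motif (CCAG, any 6 bases, CCAG), a KLF motif (GGGTGTGG) or a GC box (GGGCGG).

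Pou5f1 (chr17:35505782-35506017, plus strand): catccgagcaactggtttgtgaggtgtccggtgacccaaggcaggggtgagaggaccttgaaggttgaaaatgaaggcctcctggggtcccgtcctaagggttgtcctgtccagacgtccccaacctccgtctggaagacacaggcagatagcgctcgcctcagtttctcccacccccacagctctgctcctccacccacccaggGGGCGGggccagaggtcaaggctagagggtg
Nanog (chr6:122707239-122707488, plus strand): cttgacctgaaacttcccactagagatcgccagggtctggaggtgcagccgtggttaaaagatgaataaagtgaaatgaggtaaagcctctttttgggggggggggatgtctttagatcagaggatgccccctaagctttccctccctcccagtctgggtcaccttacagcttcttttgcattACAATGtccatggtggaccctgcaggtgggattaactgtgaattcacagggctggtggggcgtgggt
Zfp42 (chr8:43307010-43307259, minus strand): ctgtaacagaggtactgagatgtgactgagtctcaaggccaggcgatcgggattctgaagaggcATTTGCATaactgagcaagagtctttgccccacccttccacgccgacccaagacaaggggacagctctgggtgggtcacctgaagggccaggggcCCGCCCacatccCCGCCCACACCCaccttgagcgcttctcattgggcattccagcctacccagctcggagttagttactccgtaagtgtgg
Klf4 (chr4:55532476-55532725, minus strand): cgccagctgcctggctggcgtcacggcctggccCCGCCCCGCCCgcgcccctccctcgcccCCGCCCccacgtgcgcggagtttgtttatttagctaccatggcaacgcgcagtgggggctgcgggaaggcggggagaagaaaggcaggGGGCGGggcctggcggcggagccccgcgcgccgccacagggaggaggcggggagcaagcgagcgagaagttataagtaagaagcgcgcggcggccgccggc

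The *Zfp42* window held an octamer, 2 GC boxes and a KLF motif that overlaps one of these GC boxes, and it was the only one of the 12 windows of the 9 genes found in the RefSeq table with an octamer or a KLF motif. Of the windows shown, that of *Nanog* held a SOX core, that of *Pou5f1* 1 GC box and that of *Klf4* 4. *Pou5f1* and *Nanog* each have a second window that is not shown. The second *Pou5f1* window held a SOX core and no GC box, and the second *Nanog* window lies within the first and holds the same SOX core. Over all 32851 promoter windows, 1.6% held the octamer, 10.7% the SOX core, 3.2% the KLF motif and 32.7% the GC box, and the ESRRB and TFCP2L1 motifs, found in 0.387% and 2.78% of windows, had no match in the windows of the 9 genes. These matches are exact letters in a window, so stretches that differ from a motif are not marked, and no binding was measured. *Klf5* is not in that table.

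*Pou5f1* (chr17:35506018-35510772, plus strand of GRCm38) encodes OCT4, the POU factor without which the pluripotent state is lost. In germ cell-like cells it stood at 273 CPM in the one pool of E8.5, at 326 and 362 CPM at E9.5 and at 360.3, 322 and 294 CPM at E10.5. All pools from E11.5 lay below those of E8.5 to E10.5. Those of E11.5 gave 253 and 224 CPM and those of E15.5 142 and 200.2 CPM. The pools of E11.5 to E15.5 overlapped from one time-point to the next. At E16.5 both pools, at 119 and 106 CPM, lay below every earlier one. From E18.5 to PND5 the pools spread over 36.7–70.0 CPM with no order by age, and PND6 and PND7 gave 26.5–41.9 CPM. A further step lay between PND7 and PND8, where germ cell-like cells were at 11.6 and 13.9 CPM and the 151 unnamed cells of replicate 1, with *Ddx4* at 414 CPM, at 20.3 CPM, and the pools of PND8 to PND14 spanned 7.81–16.54 CPM. Spermatocyte-like cells of PND12 and PND14 held 1.58–4.46 CPM, those of PND30 to the adult 0.0469–1.07 CPM and spermatid-like cells 0.886–2.37 CPM. An antisense transcript, *Gm19553*, shares 317 exon bases with *Pou5f1*, and no UMI was counted for it in any germ line pool.

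*Nanog* (chr6:122707489-122714633, plus strand), the homeobox factor of the core, reached its highest pool values in migrating cells, at 275, 271 and 205 CPM in the 3 pools of E10.5, which overlapped with those of E9.5 and E11.5. At E13.5 it stood at 106 and 161 CPM and at E14.5 at 88.0 and 115 CPM, and these pools overlapped. Both pools of E15.5, at 18.6 and 35.5 CPM, and then both of E16.5, at 6.45 and 9.26 CPM, lay below all earlier ones. The pools of E17.5 to PND7 spanned 5.57–25.4 CPM, with replicate 2 of PND5 at the top, and those of PND8 to PND14 1.74–6.81 CPM. Late spermatocyte-like and spermatid-like cells held at most 0.544 CPM.

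*Sox2* (chr3:34650405-34652461, plus strand), the HMG box partner of OCT4, was high in migrating cells and nearly undetected at E16.5. Its pools gave 283 and 290.3 CPM at E9.5, 257 and 224 CPM at E11.5, 124 and 156 CPM at E12.5 and 89.4 and 109.5 CPM at E13.5. From E11.5 to E13.5 the pools of each time-point lay above those of the next. At E16.5 only 0.183 and 1.29 CPM were left, from 29.05 and 50.7 CPM a day before. Around birth *Sox2* stood above this, with 2.696 and 17.8 CPM at E18.5, 17.2 and 7.32 CPM at PND0, 15.6 and 28.2 CPM at PND2 and 10.6 and 28.6 CPM at PND3. The replicates of a time-point differed widely in this period. Both pools of PND2 lay above both of PND1, whose mean was 10.7 CPM. The other neighbouring days from E18.5 to PND4 overlapped. From PND5 the pools held at most 3.32 CPM, and *Sox2* lies within *Sox2ot*, a non-coding gene that has no row in the table and shares no exon bases with it.

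*Utf1* (chr7:139943789-139945112, plus strand), a chromatin factor of embryonic stem cells, was as high at E16.5 as before mitotic arrest. It gave 442 and 499 CPM at E9.5, 644 and 784 CPM at E13.5 and 659 and 607 CPM at E16.5. Lower levels followed. The one pool of E17.5 gave 449 CPM, E18.5 402 and 308 CPM, PND0 205 and 408 CPM, PND3 97.5 and 147 CPM and PND5 57.6 and 65.9 CPM. E16.5, E17.5 and E18.5 did not overlap, whereas neighbouring days from E18.5 to PND4 did, and both pools of PND5 lay below all earlier ones. Germ cell-like cells of PND10 and PND14 held 31.3–33.3 and 29.6–33.7 CPM, PND12 32.3 and 84.5 CPM, and late spermatocyte-like cells 2.39–6.41 CPM.

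**Figure D1:**
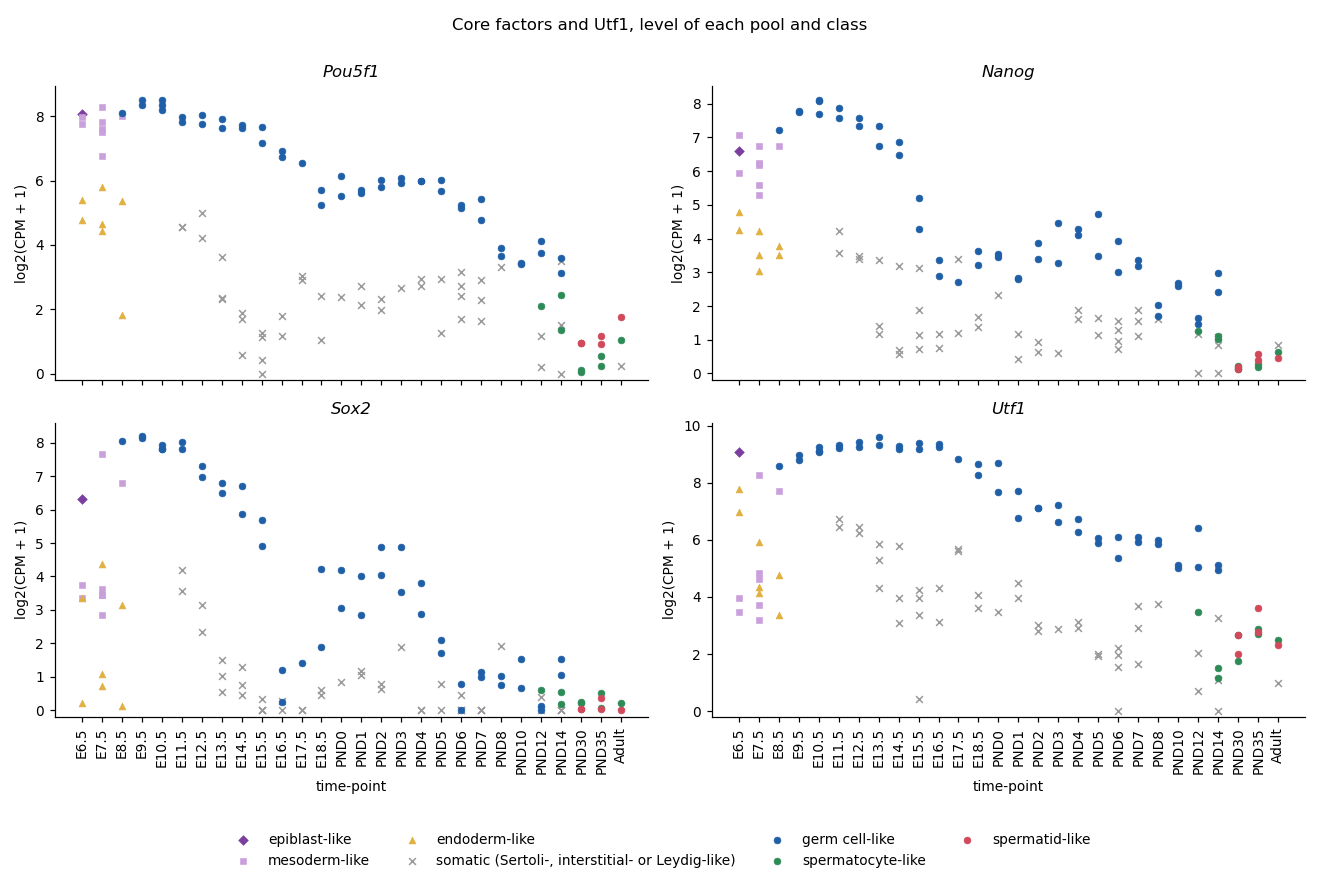
Levels of *Pou5f1*, *Nanog*, *Sox2* and *Utf1* (log2(CPM + 1)) by time-point, one point per pool and class, with germ line, early embryo and somatic classes in separate colours and symbols. *Nanog* and *Sox2* are low from E16.5, *Utf1* lies between 584 and 784 CPM from E11.5 to E16.5, and *Pou5f1* steps down to 0.0469–2.37 CPM in late spermatocyte-like and spermatid-like cells.

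*Zfp42* (chr8:43295063-43306980, minus strand) encodes REX1, a zinc finger protein long used as a mark of naive cells, and its course had 2 high periods. It stood at 51.0 CPM at E8.5, 88.0 and 97.0 CPM at E9.5, 165, 183 and 171 CPM at E10.5 and 268 and 234 CPM at E11.5, with no overlap between these days. It was lower later, at 57.6 and 79.4 CPM at E16.5 and 41.2 and 46.7 CPM at E18.5, and the pools of PND0 to PND7 spanned 34.8–76.6 CPM. Germ cell-like cells of PND8 to PND14 lay at 18.6–40.4 CPM. In spermatocyte-like cells the level was 109.9 and 126 CPM at PND14, above 40.4 and 29.6 CPM in the germ cell-like cells of the same 2 pools, and 67.1–80.6 CPM from PND30 to the adult.

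*Esrrb* (chr12:86361117-86521628, plus strand), an orphan nuclear receptor of the naive network, was highest at E9.5 to E11.5, at 75.3–142 CPM. It was 53.3 and 74.6 CPM at E12.5, 24.8 and 34.1 CPM at E13.5 and 10.7 and 8.12 CPM at E15.5, and 4.16 and 2.31 CPM at E16.5. Each of these days lay below the one before, and E13.5 overlapped with E14.5 at 22.9 and 35.7 CPM. After E18.5 no germ cell-like pool exceeded 7.99 CPM. *Tfcp2l1* (chr1:118627945-118685168, plus strand), a grainyhead-like factor downstream of LIF signalling, gave 95.2 and 99.0 CPM at E11.5, only 18.2 and 17.4 CPM at E13.5, 38.4 and 52.4 CPM at E14.5 and 44.1 and 54.0 CPM at E15.5, and 13.3 and 22.9 CPM at E16.5. The dip at E13.5 lay below both of its neighbours without overlap. From E16.5 to PND14 *Tfcp2l1* stayed within 7.80–25.5 CPM. It overlaps a small nuclear RNA gene, *Gm23497*, over 130 exon bases, and that gene has no row.

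The 3 Krüppel-like factors, zinc finger proteins that stand in for each other in embryonic stem cells, did not all follow the same course. *Klf2* (chr8:72319033-72321656, plus strand) gave 151 and 180.5 CPM at E9.5 and 128 and 255 CPM at E11.5, 69.4 and 87.0 CPM at E12.5 and 9.01 and 6.16 CPM at E15.5. Its replicates differed widely at some time-points. At E10.5 the 3 pools gave 84.3, 122 and 191 CPM, beside summed levels of 14 dissociation response genes (*Fos*, *Jun*, *Egr1* and others) of 456, 571 and 802 CPM, and the part of this in the difference was not tested. At PND8 and PND12 the pools with dissociation sums of 1154 and 1103 CPM were also those with 36.6 and 27.2 CPM of *Klf2*, against 7.81 and 12.7 CPM in the other replicate, and the first of these rests on 21 cells. Among time-points with several germ cell-like pools, only E12.5, E18.5, PND0, PND5 and PND6 had the larger dissociation sum in the pool with less *Klf2*. At PND6 the sums were 632 and 547 CPM beside 2.81 and 13.1 CPM of *Klf2*. At E18.5 they were 349 and 271 CPM beside 4.27 and 13.52 CPM. At the rest of these time-points more *Klf2* went with the larger sum, such as 723 and 815 CPM beside 128 and 255 CPM at E11.5. *Klf5* (chr14:99298691-99315036, plus strand) stayed at 92.6–144 CPM from E8.5 to E12.5, was 60.9 and 59.8 CPM at E14.5 and 18.7 and 17.8 CPM at E16.5, and spanned 4.39–46.7 CPM from E18.5 to PND14.

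*Klf4* (chr4:55527143-55532466, minus strand) was low while the others were high and rose at arrest. Up to E14.5 every germ cell-like pool held 1.14–11.7 CPM. The level was 32.8 and 12.95 CPM at E15.5, 43.0 and 41.9 CPM at E16.5 and 69.8 CPM in the one pool of E17.5, and all germ cell-like pools from E15.5 to PND14 lay above all earlier ones. From PND1 to PND14 it spanned 12.4–44.5 CPM, late spermatocyte-like cells held 4.01–8.92 CPM, and spermatid-like cells 68.7–126 CPM, a range that includes the one pool of E17.5.

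**Figure D2:**
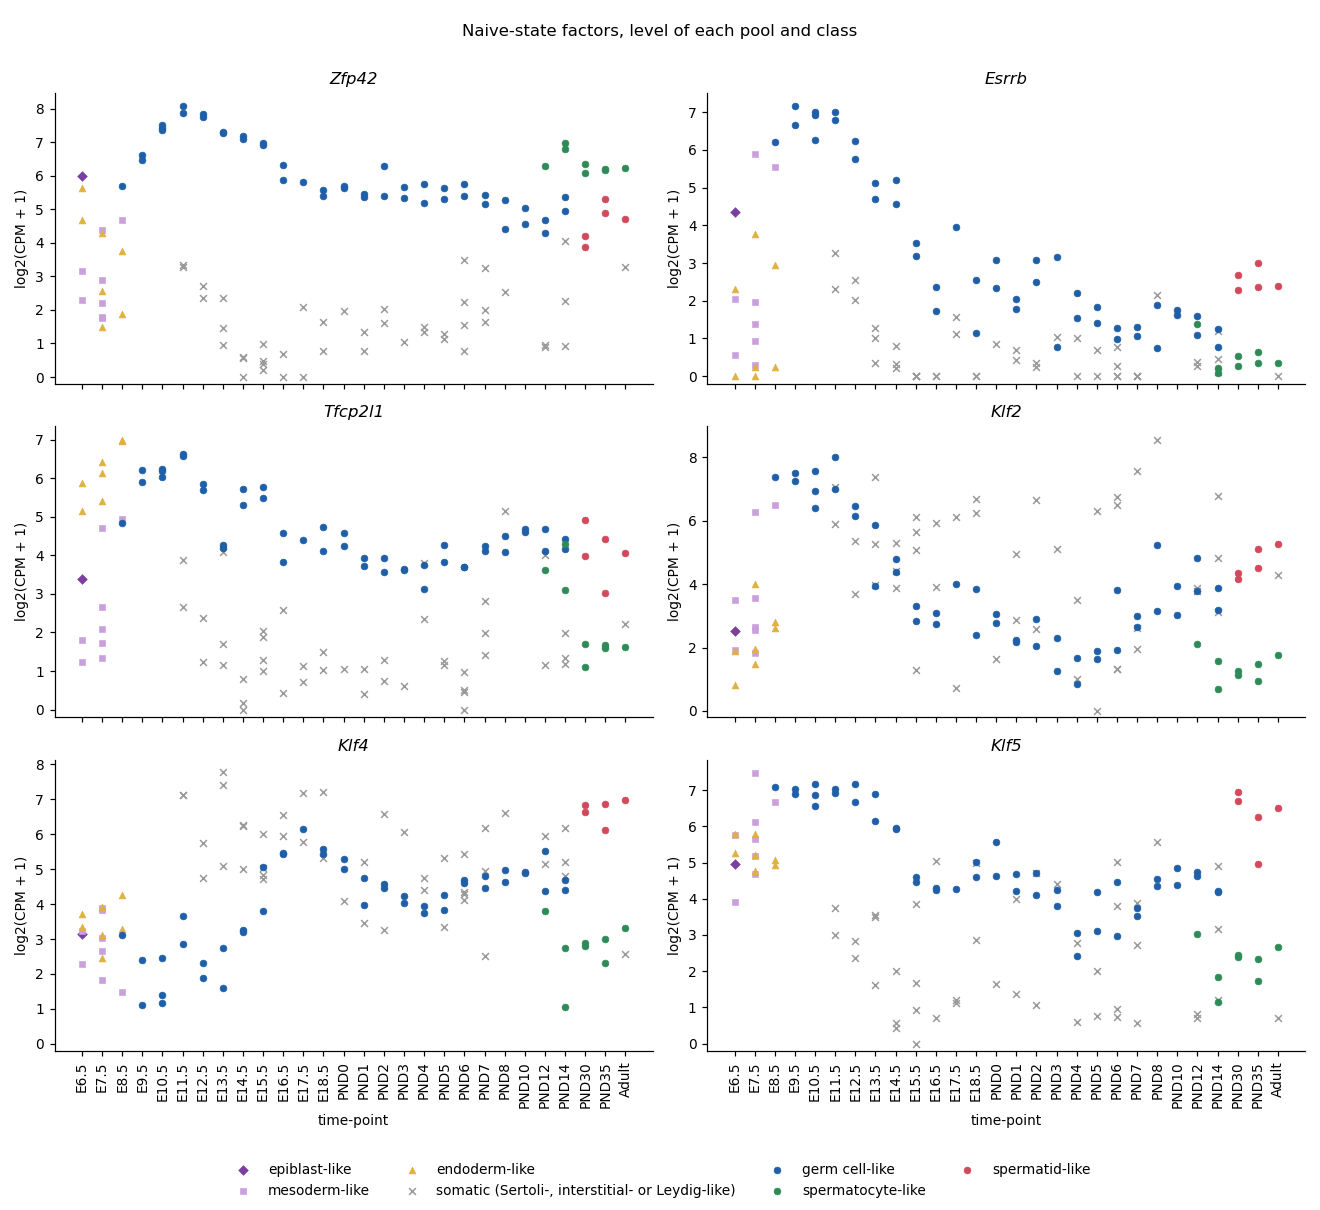
Levels of *Zfp42*, *Esrrb*, *Tfcp2l1*, *Klf2*, *Klf4* and *Klf5* (log2(CPM + 1)) by time-point, one point per pool and class, with germ line, early embryo and somatic classes in separate colours and symbols. *Esrrb*, *Klf2* and *Klf5* are high to E12.5 and low from E15.5, *Klf4* is low to E14.5, *Zfp42* has a late high period in spermatocyte-like cells and the Krüppel-like factors one in spermatid-like cells.

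Neighbouring stages were compared with edgeR's quasi-likelihood test on the summed UMIs of each pool, and adjusted p-values are those of this test with Benjamini-Hochberg adjustment over all genes tested, called at 0.05. Fold changes were taken after edgeR's scaling between pools (TMM), so they can differ from the ratio of the CPM values printed beside them. Several comparisons share pools, since each stage serves as the reference of the next. In the first comparison the E6.5 side is a single pool, so its own spread is not measured and was taken to be that of the germ cell pools, and its gate and stage cannot be told apart. From epiblast-like cells of E6.5 to migrating germ cells of E9.5 and E10.5, 6 of the 10 genes rose, where 8.53% of 17429 tested genes did, and 4 were not called. The genes that rose were *Nanog*, *Sox2*, *Esrrb*, *Tfcp2l1*, *Klf2* and *Klf5*. *Klf2* had the largest difference with all 261 epiblast-like cells, from 4.74 CPM in the one E6.5 pool to 84.3–191 CPM in the 5 germ cell pools (log2 fold change 4.95, SE 0.49, edgeR adjusted p = 4e-05). *Tfcp2l1* went from 9.55 to 59.1–75.2 CPM (log2 fold change 2.85, SE 0.31) and *Esrrb* from 19.3 to 75.3–142 CPM (2.55, SE 0.34). Of the core, *Nanog* rose by 1.32 (SE 0.22) and *Sox2* by 1.69 (SE 0.21) on the log2 scale, while *Pou5f1*, at 269 against 294–362 CPM, and *Utf1*, at 533 against 442–615 CPM, did not pass the test. For 8 genes all germ cell pools lay above the E6.5 pool and for *Klf4* all lay below it, a lack of overlap found for 56.5% of all genes tested.

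The E6.5 side of this comparison held more than one kind of cell. At a clustering resolution of 0.8 in place of 0.3, 51 of the 261 cells separated as extraembryonic ectoderm-like, with *Elf5*, a regulator of trophoblast stem cells, at 329 CPM against 4.96 CPM in the 209 that stayed epiblast-like. In these 51 cells *Zfp42* stood at 283 against 11.8 CPM, *Esrrb* at 94.9 against 2.02 CPM and *Klf5* at 136 against 5.83 CPM. *Pou5f1* was at 36.1 against 322 CPM and *Nanog* at 12.9 against 114 CPM, while *Sox2* and *Utf1* were at 74.1 and 79.9 CPM and at 525 and 535 CPM, with no replicate to test these differences. Against the 209 cells alone, in a fit where 9.47% of 17413 genes and 7 of the 10 members rose, *Zfp42* also rose to the migrating stage (log2 fold change 3.57, SE 0.47, edgeR adjusted p = 0.000263, against 1.18 and p = 0.0608 with all 261), and the changes of *Esrrb*, *Tfcp2l1* and *Klf5* came to 5.79, 4.68 and 4.35, so that *Esrrb* and no longer *Klf2*, at 5.38, had the largest.

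Of 32 other genes of the pluripotency network, 12 rose and 6 fell in this comparison, with a median log2 fold change of 0.42 against 0.06 over all genes tested. *Myc*, a driver of growth and division, fell from 162 to 0.0356–7.64 CPM. *Tcl1*, a coactivator of AKT signalling, rose from 0.723 to 126–301 CPM. Of 25 tested paralogues of the 10 genes 4 rose and 2 fell, led by *Sox15*, another SOX factor of embryonic stem cells, which went from 6.22 to 126–179.7 CPM (log2 fold change 4.65). The 8 primed epiblast genes had a median log2 fold change of -7.24. Of these, *Fgf5*, *Pou3f1*, *Otx2* and *Dnmt3b* are also among the markers that named the epiblast-like cluster. Their lower level in germ cells was set up by that choice of cells and is not a separate result. Of the 14 dissociation response genes 2 rose and 2 fell.

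Between the migrating cells and those that had reached the gonad at E11.5 and E12.5, *Pou5f1* and *Zfp42* were called. *Pou5f1* fell from 294–362 to 213–263 CPM (log2 fold change -0.51, SE 0.10, edgeR adjusted p = 0.00566) and *Zfp42* rose from 88.0–183 to 213–268 CPM (0.71, SE 0.20, adjusted p = 0.0371). These were 2 of 10 genes, against 8.83% of 14170 genes called, and the same 2 were the only members whose pools did not overlap, against 13.3% of all genes. The gonadal side was not uniform. For *Sox2*, *Zfp42*, *Esrrb*, *Tfcp2l1*, *Klf2* and *Klf4* both pools of E12.5 lay below both of E11.5, with means of 240.3 and 140.3 CPM at E11.5 and E12.5 for *Sox2*, 118 and 64.0 CPM for *Esrrb*, 97.1 and 53.8 CPM for *Tfcp2l1* and 192 and 78.2 CPM for *Klf2*, and these days were not tested against each other. The call of *Zfp42* was lost when any one of the E9.5, E11.5 or E12.5 pools was left out, with log2 fold changes of 0.57 to 0.82. Of the 31 network genes tested 3 fell, among them *Lin28a*, an RNA-binding protein that blocks let-7 maturation (71.0–162 to 29.8–83.2 CPM), and *Tfap2c*, a regulator of germ cell fate (229.9–335 to 115–204 CPM). One of 21 paralogues, *Ubp1*, rose and 1 fell, and of 14 dissociation response genes 1, *Ier3*, fell.

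The change at mitotic arrest, from E11.5 and E12.5 to E15.5 and E16.5, moved almost every member: 8 fell, *Klf4* rose and *Utf1* was not called. Of all 16514 genes tested 56.8% were called, 5302 higher and 4083 lower, or 6947 higher and 3284 lower with limma on the mean CPM of cells. *Klf2* fell from 69.4–255 to 5.62–9.01 CPM (log2 fold change -4.55, SE 0.42), *Esrrb* from 53.3–127 to 2.31–10.7 CPM (-4.11, SE 0.49) and *Nanog* from 159–235 to 6.45–35.5 CPM (-3.71, SE 0.50). *Sox2* fell by 3.43 on the log2 scale with a wide error (SE 1.10, edgeR adjusted p = 0.0191), with arrested pools at 0.183–50.7 CPM. *Klf5* fell by 2.89, *Zfp42* by 1.57, *Tfcp2l1* by 1.42 and *Pou5f1* by 1.01 on that scale. *Utf1* was at 587–692 and 585–675 CPM, with means of 634 and 631 CPM (log2 fold change -0.29, SE 0.12, adjusted p = 0.0641). It passed the test at -0.42 without replicate 2 of E15.5. *Klf4* rose from 2.71–11.7 to 12.95–43.0 CPM (2.09, SE 0.49, adjusted p = 0.00345).

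The pools of the 2 sides did not overlap for 8 of the 10 genes, against 54.0% of all genes, and the median log2 fold change of the 10 was -2.23 against 0.22 over all. The summed levels of 5 Leydig cell markers were 19.8 to 309 CPM in the arrested pools and 2.85 to 24.3 CPM in the earlier ones, and of 9 Sertoli cell markers 33.3 to 256 and 24.1 to 49.0 CPM. The part of this in the rise was not tested. Of 31 further network genes 20 fell and 4 rose (median -1.45). *L1td1*, an RNA-binding protein of stem cells, fell from 287–411 to 5.62–11.495 CPM. The LIF pathway genes *Stat3* and *Lifr* rose, from 7.11–8.20 to 43.6–71.3 and from 13.4–23.5 to 40.6–75.4 CPM. Of 23 paralogues 4 rose and 4 fell, *Klf7* from 15.9–24.2 to 89.3–116 CPM and *Sox15* from 98.4–159 to 4.61–9.52 CPM. Of 6 primed epiblast genes 1 rose, *Dnmt3b*, and 1 fell, *Otx2*. Of 14 dissociation genes 3 rose and 2 fell.

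From arrest to the prospermatogonia of E18.5 and PND0, *Pou5f1*, *Utf1* and *Zfp42* fell and the other 7 members were not called. Of 20182 genes tested 11.1% fell. *Pou5f1* went from 106–200.2 to 36.7–70.0 CPM (log2 fold change -1.80, SE 0.28, edgeR adjusted p = 0.00254), *Utf1* from 585–675 to 205–408 CPM (-1.23, SE 0.21) and *Zfp42* from 57.6–126 to 41.2–50.7 CPM (-1.35, SE 0.26). These 3 and *Klf5*, at 17.8–23.2 against 23.4–46.7 CPM and not called, had no overlap between pools, against 29.6% of all genes. *Nanog* and *Tfcp2l1* passed the test in one of the settings run, at -1.43 and -1.31 without replicate 1 of E16.5. The later side joins the reporter gate of E18.5 with ungated cells of PND0, and the summed blood markers were 354 to 678 CPM in it against 62.0 to 310 CPM. Over all genes 1307 were called higher and 2232 lower, but 4429 and 1226 with limma on the mean CPM of cells. Of 31 network genes 8 fell and 1 rose. *Dppa3*, the gene of the reporter used for sorting and known for protecting methylated DNA in the zygote, fell from 127–1156 to 31.5–80.5 CPM, and *Tbx3*, a T-box factor of naive cells, rose from 0.5–2.61 to 13.7–16.503 CPM. Among 25 paralogues 1 rose and 1 fell, among 8 primed genes 2 rose, *Otx2* and *Sox3*, and among 14 dissociation genes 1 fell.

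Spermatogonia of PND5 to PND7 were lower than prospermatogonia in *Utf1*, *Sox2* and *Klf5*, in a comparison that called 67.5% of 20455 genes. *Utf1* fell from 205–408 to 40.6–68.2 CPM (log2 fold change -2.02, SE 0.18, edgeR adjusted p = 4.09e-07), *Sox2* from 2.696–17.8 CPM to at most 3.32 CPM (-2.49, SE 0.81) and *Klf5* from 23.4–46.7 to 6.85–21.2 CPM (-0.84, SE 0.30, adjusted p = 0.0242, lost without replicate 1 of PND0). *Zfp42* was called higher (0.34, SE 0.14, adjusted p = 0.0479) although its mean CPM went from 46.7 to 43.1, and the call was lost with other size factors, with DESeq2, without the filter on low counts and with limma, where the value was -0.16. The median log2 fold change over all genes was -0.21 with the main scaling and -0.37 with the other size factors, and beside these *Pou5f1*, *Nanog* and *Tfcp2l1*, at 0.19, 0.78 and 0.00, were not called. *Utf1*, *Klf4* and *Klf5* were the 3 genes whose pools did not overlap, against 55.3% of all genes, and *Klf4* (31.1–46.9 against 13.3–27.03 CPM) missed the threshold at p = 0.0512. *Klf4* and *Esrrb* were called lower with the other size factors and with DESeq2, which makes 5 members lower, and with limma *Tfcp2l1* as well, which makes 6. Called genes split into 6279 higher and 7536 lower, or 4048 and 10361 with limma and 5651 and 10405 without the filter on low counts. Of the 31 network genes 12 rose and 13 fell. *Mycn* rose from 5.79–40.9 to 74.8–84.0 CPM and *Lin28a* from 6.70–17.47 to 36.9–66.0 CPM, while *L1td1* fell from 13.9–23.1 to 0.235–2.47 CPM. Of 24 paralogues 5 rose and 11 fell, of 8 primed genes 3 and 5, and of 14 dissociation genes 7 rose, among them *Egr1* from 14.1–54.3 to 55.7–111 CPM.

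Between spermatogonia and the spermatocyte-like cells of PND30 to the adult, 9 of the genes fell and *Zfp42* rose, where 85.0% of 19314 genes were called. *Pou5f1* fell from 26.5–63.4 to 0.0469–1.07 CPM (log2 fold change -6.15, SE 0.66), *Nanog* from 7.07–25.4 to 0.105–0.544 CPM (-5.07, SE 0.53) and *Utf1* from 40.6–68.2 to 2.39–6.41 CPM (-2.98, SE 0.23). Of the naive factors, *Tfcp2l1* fell by 2.31, *Esrrb* by 1.45, *Klf2* by 1.16, *Klf4* by 1.07 and *Klf5* by 0.98 on the log2 scale. *Zfp42* rose from 34.8–53.1 to 67.1–80.6 CPM (1.41, SE 0.12, edgeR adjusted p = 7.72e-08), with no overlap between pools. Its mean CPM went from 43.1 to 73.1, and that of *Klf5* from 12.6 to 4.08. In mean CPM the rise was thus smaller, and the falls were larger, than these fold changes. There was no overlap for 8 of the 10 genes, near the 75.5% of all genes. The calls of *Sox2* (adjusted p = 0.0327) and *Klf2* (p = 0.03) were lost when one of several single pools was left out, among them either pool of PND30, and *Klf2*, at -0.42, also when the adult replicate 1 cells of the Leydig-led cluster were added. Of 31 network genes 24 fell and 4 rose (median -2.79 against 0.15 over all genes). *Sall4*, a zinc finger factor of spermatogonia, fell from 117–143 to 0.183–2.34 CPM and *Trim28*, a corepressor of zinc finger proteins, rose from 123–179.6 to 261–340.2 CPM. Of 25 paralogues 10 rose and 11 fell. *Sox30*, a SOX factor of meiosis and spermiogenesis, rose from 1.14–5.86 to 38.9–64.2 CPM, and *Klf11* fell from 54.3–82.1 to 0.0655–1.5 CPM. Of 4 primed genes 3 fell and 1 rose, and of 14 dissociation genes 13 fell.

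Spermatid-like cells, compared with the spermatocyte-like cells of the same 5 pools, had higher levels of every naive factor but *Zfp42*. *Klf4* rose from 4.01–8.92 to 68.7–126 CPM (log2 fold change 4.10, SE 0.26, edgeR adjusted p = 2.51e-08), *Klf5* from 2.34–5.31 to 29.9–122 CPM (4.48, SE 0.41) and *Klf2* from 0.935–2.39 to 16.8–37.3 CPM (4.11, SE 0.31). *Esrrb* went from 0.211–0.574 to 3.87–6.99 CPM (3.85, SE 0.36) and *Tfcp2l1* from 1.15–2.24 to 7.09–29.3 CPM (3.31, SE 0.40), whereas *Zfp42* fell from 67.1–80.6 to 13.7–38.3 CPM (-1.55, SE 0.19). For these 6 genes the pools of the 2 classes did not overlap, near the 56.6% of all genes, and 7 of the 10 genes were called, near the 69.4% of 19915. *Pou5f1* was called higher (1.85, SE 0.68, adjusted p = 0.0269) at levels of 0.886–2.37 against 0.0469–1.07 CPM, and lost the call without any one of the adult spermatid-like, PND30 replicate 1 or PND35 replicate 1 spermatocyte-like pools. *Nanog*, *Sox2* and *Utf1* were not called, but *Sox2* was, at -3.44, without the spermatid-like cells of PND35 replicate 2.

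The DNA-content gates of PND30 gave a split that did not use the clusters. *Klf4* was at 84.6 and 78.0 CPM in the 2 pools of the 1N gate and at 38.7 and 17.3 CPM in the 4N pools (log2 fold change 1.70), and *Klf5* at 73.4 and 132 against 40.3 and 21.1 CPM (1.93). *Zfp42* was at 20.7 and 15.8 against 56.9 and 68.2 CPM (-1.62). These 3 and *Tfcp2l1* (1.86) were called, 4 of the 8 members tested, where 26.6% of 18347 genes were called. *Klf2* at 1.31 (edgeR adjusted p = 0.133), *Esrrb* at 0.67 (p = 0.47) and *Pou5f1* at 1.78 (p = 0.224) were not called in these 4 pools. The 2N gate, which was not tested, held 100.2 and 55.3 CPM of *Klf4*, 85.2 and 46.1 CPM of *Klf5* and 5.42 and 2.60 CPM of *Esrrb*, and in replicate 1 it lay above the 1N gate for these 3 genes.

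Of 26 network genes tested in the spermatid-like cells 5 rose and 7 fell. *Zscan10*, a zinc finger factor of embryonic stem cells, rose from 0.294–0.866 to 11.52–14.6 CPM, and *Rif1*, a regulator of replication timing, fell from 211–238 to 23.8–67.2 CPM. Further Krüppel-like factors moved, with *Klf17* at 1.22–4.05 against 14.2–63.2 CPM, *Klf12* at 0.276–1.10 against 10.7–18.4 CPM and *Klf10* lower at 13.01–19.2 against 0.968–4.06 CPM. In all 9 of 24 paralogues rose and 5 fell, 2 of 5 primed genes rose and 1 fell, and 8 of 13 dissociation genes rose and 1 fell. The summed level of the dissociation genes was 62.8 to 106 CPM in spermatid-like and 31.7 to 43.4 CPM in spermatocyte-like cells, and its part in the levels of the Krüppel-like factors was not tested.

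**Figure D3:**
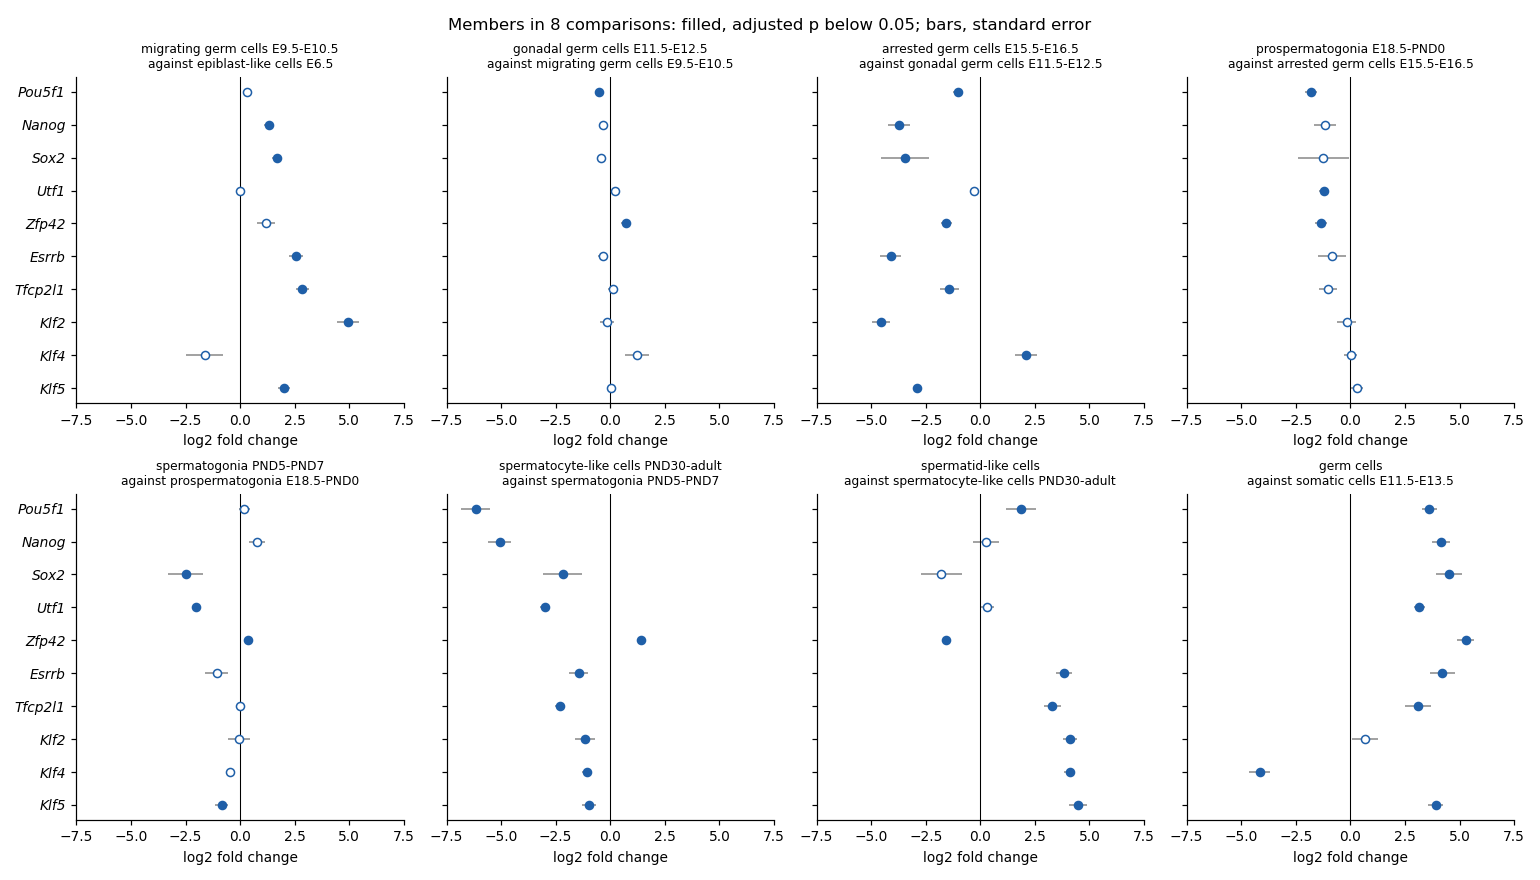
Log2 fold changes of the 10 genes in the 8 comparisons, with filled points for those past the threshold and bars of 1 standard error (edgeR). At arrest 8 genes fall and *Klf4* rises, and in spermatid-like cells 7 genes are past the threshold, near the 69.4% of all genes.

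Germ cells of the reporter-positive gate were set against the somatic cells of the Negative gate of the same 6 pools at E11.5 to E13.5. In this comparison 8 of the 10 genes were higher in germ cells, *Klf4* was higher in somatic cells and *Klf2* did not pass the test, while 53.8% of 13376 genes were called. *Zfp42* had the largest difference, with 153–268 CPM in germ and 1.15–9.08 CPM in somatic cells (log2 fold change 5.29, SE 0.39, edgeR adjusted p = 1.68e-08). *Sox2* (4.51), *Esrrb* (4.22), *Nanog* (4.13), *Klf5* (3.91), *Pou5f1* (3.62), *Utf1* (3.16) and *Tfcp2l1* (3.10) followed, each with every germ cell pool above every somatic one. *Klf4* was at 2.05–11.7 CPM in germ and 35.3–182 CPM in somatic cells (-4.15, SE 0.48), and *Klf2* at 14.4–255 and 11.95–132 CPM (0.68, SE 0.60, adjusted p = 0.358). Pools without overlap were found for 9 of the 10 genes and for 32.7% of all genes.

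The somatic cells also held UMIs of members and of genes used as germ cell markers. *Pou5f1* stood at 22.5 and 22.4 CPM in the interstitial-like cells of E11.5 and at 11.48 and 4.13 CPM in those of E13.5, and *Utf1* at 87.3 and 106 and 38.5 and 18.9 CPM. The 14 germ cell markers summed to 149 to 195 CPM in the somatic and 1182 to 2819 CPM in the germ cell pools, 2 of the 14 stayed under 1 CPM in every somatic pool, and the part of carried-over RNA in the somatic levels was not tested. In the other direction, 9 Sertoli cell markers summed to 24.1 to 49.0 CPM in germ cells against 864 to 1790 CPM. All 14 dissociation response genes were lower in germ cells, with *Fosb* at 1.25–8.92 against 83.3–413 CPM, and the part of this list in the values of *Klf2* and *Klf4* was not tested. Of 31 network genes 24 were higher and 5 lower (median 3.08 against 0.03 over all genes). *Dppa2*, a germ cell and stem cell chromatin factor, was at 130.0–187 against 1.41–6.83 CPM, and *Socs3*, the feedback inhibitor of the LIF pathway, at 0.136–2.27 against 25.3–217 CPM. Of 19 paralogues 4 were higher and 6 lower, with *Sox15* at 47.3–159 against 0.929–6.83 CPM and *Klf6* at 24.2–52.2 against 125–449.7 CPM, and of 5 primed genes 3 were higher and 1 lower. In later somatic cells *Klf2* reached 374 CPM in the 13 interstitial-like cells of PND8 and *Klf4* 39.0 and 148 CPM in those of E18.5.

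**Figure D4:**
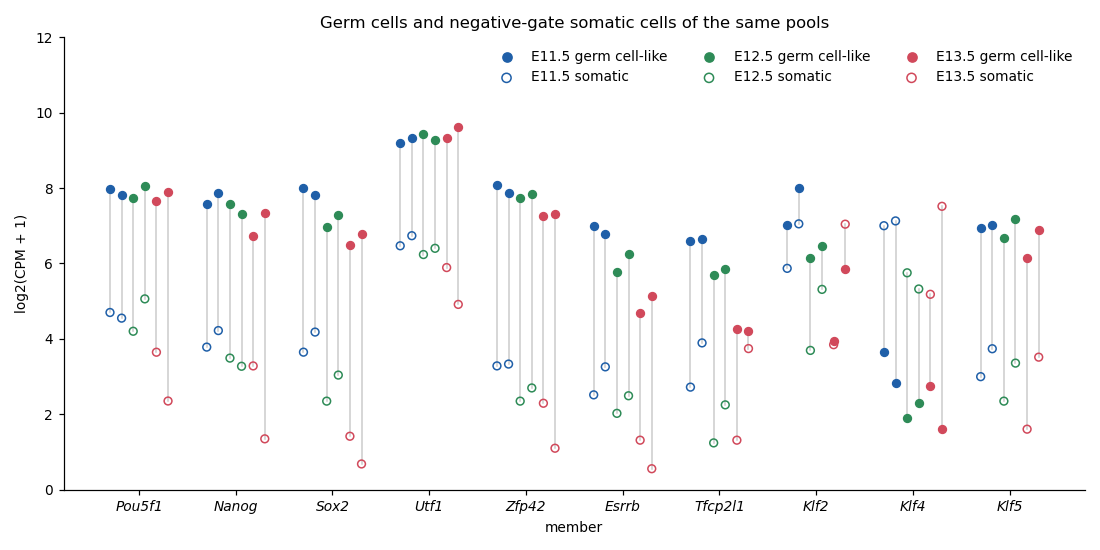
Levels of the 10 genes (log2(CPM + 1)) in germ cells of the reporter-positive gate (filled) and somatic cells of the Negative gate (open) at E11.5 to E13.5, with one line joining the 2 values of a pool. The germ cell value is the upper one in all 6 pools for 8 genes and the lower one for *Klf4*, and *Klf2* goes both ways.

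Cells of the gastrulating embryo differed among classes in these genes. Mesoderm-like cells of E6.5 and E7.5 held 108 to 308 CPM of *Pou5f1* and 38.3 to 132 CPM of *Nanog*. *Utf1* was at 14.7 and 10.0 CPM in those of E6.5, against 533 CPM in the epiblast-like cells. At E6.5 the epiblast-like cells were of replicate 1 and the mesoderm-like ones of replicates 2 and 3. Class and replicate cannot be told apart there. One E7.5 pool stood apart and went against its class name: the 38 mesoderm-like cells of replicate 4 (FACSrandom) held 202 CPM of *Sox2*, 309.9 CPM of *Utf1*, 76.0 CPM of *Klf2* and 57.9 CPM of *Esrrb*, with the germ cell gene *Dppa3* at 599 CPM, against 24.2 to 55.2 CPM in the other mesoderm-like pools of that day. The other E7.5 mesoderm-like pools held at most 11.3, 27.9, 10.8 and 2.92 CPM of these 4 members. The 21 mesoderm-like cells of the BVSC gate of E8.5 replicate 3 were near it, with 109 CPM of *Sox2* and 209.9 CPM of *Utf1*, and held 405 CPM of *Dppa3*. Endoderm-like cells held *Tfcp2l1* at 57.6 and 34.8 CPM at E6.5 and 124 and 127 CPM at E8.5, with at most 19.9 CPM of *Sox2*. Those of E8.5 came from the BVSC gate, and levels of *Tfcp2l1* in those of E7.5 are not given here. The extraembryonic ectoderm-like cells of E6.5, at 39.6 CPM of *Tfcp2l1*, lay between the endoderm-like values of that day.

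The share of cells with at least 1 UMI was taken after every cell was thinned to 50000 UMIs, with shallower cells left out (such as 11 of 190 germ cell-like cells at E16.5). At E9.5 100% of germ cell-like cells had a UMI of *Sox2* and 99.4% one of *Nanog*, and 9.95% one of *Klf4* (22.6% without thinning). At E15.5 these shares were 49.4%, 48.9% and 33.3%, and at E16.5 2.23%, 25.7% and 66.5% (3.68%, 62.6% and 84.7% without thinning). *Utf1* was found in 100% of the cells at E16.5 and still in 99.4% at PND0, and in 62.1% at PND5. *Sox2* was found in 47.3% of the germ cell-like cells of PND2 and 6.37% of those of PND5.

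In somatic cells of E11.5, 74.5% had a UMI of *Pou5f1* and 91.5% one of *Utf1* after thinning, and at E16.5 7.5% and 30%. Median depths at E11.5 were 182121 UMIs in somatic and 350702 in germ cells. The E16.5 share of *Nanog* in germ cells, 25.7%, stands beside 7.5% in the somatic cells of that day, and that of *Klf4*, 66.5%, beside 72.5%, at median depths of 248772 and 187907 UMIs. In spermatocyte-like cells of PND30, 91.0% had a UMI of *Zfp42*, 22.4% one of *Klf4* and 16.3% one of *Klf5*, and in spermatid-like cells 36.9%, 90.3% and 67.4%, at median depths of 322296 and 305119 UMIs. Shares of *Nanog* and *Sox2* were at most 2.32% in these late classes.

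**Figure D5:**
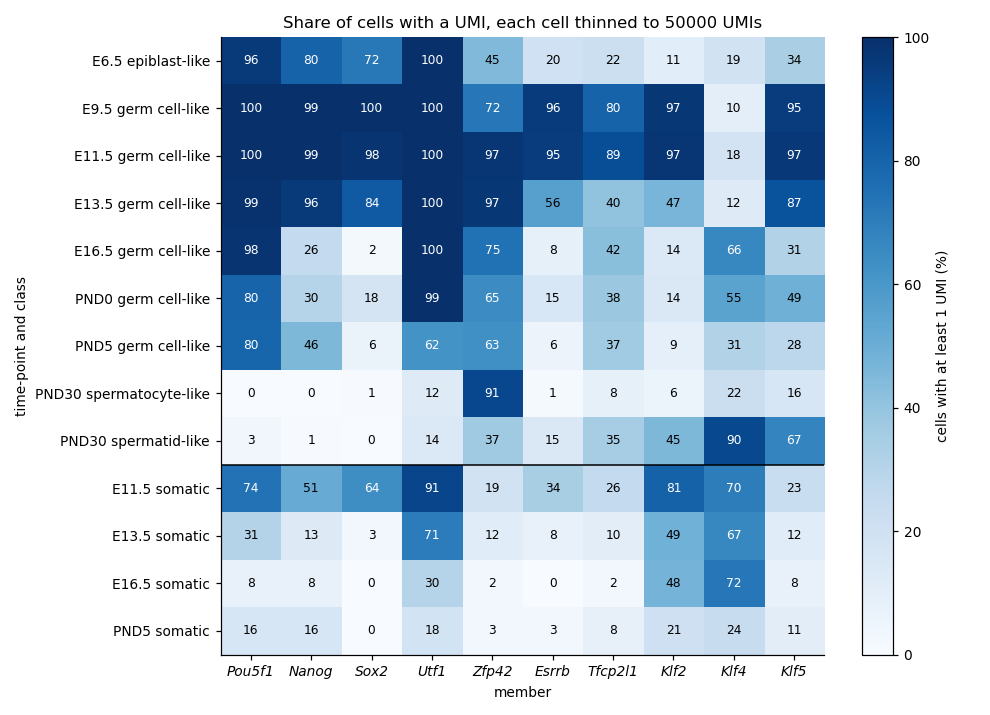
Heat map of the share of cells (%) with at least 1 UMI of each gene (columns) after thinning to 50000 UMIs, for selected time-points and classes (rows), germ line above and somatic cells below the line. *Sox2* is found in almost every germ cell at E9.5 and in 2.23% at E16.5, *Utf1* stays at 99.4% or above at E16.5 and PND0, and *Klf4* reaches 90.3% of spermatid-like cells at PND30.

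Patterns were compared across 31 means of a time-point and class of the germ line, from E8.5 to the adult. This is a description only, since all points share libraries, scaling and the order of development. Among the 10 genes, Pearson correlations of log2(CPM + 1) were highest for *Pou5f1* with *Utf1* (0.953), *Nanog* with *Sox2* (0.940), *Pou5f1* with *Nanog* (0.923) and *Klf2* with *Klf5* (0.907), and lowest for *Zfp42* with *Klf4* (-0.748). Of 14516 genes, those most like *Pou5f1* were *Fancb* (0.973), *Ifitm2* (0.969) and *Tnfrsf19* (0.967), and those most like *Nanog* were *Glrx* (0.979), *Set* (0.978) and *Sox15* (0.975). *Sox2* was nearest to *Adam19* (0.949), and *Utf1* to *Fancb* (0.970). Among the genes most like *Esrrb* was *Prdm14* (0.938). *Tfcp2l1* was nearest to *Hsf2* (0.888), *Klf2* to *Klf5* (0.907), and *Klf5* to *Cpsf4l* (0.912). *Klf4* was nearest to *Chrna5* (0.955) and *Ttll7* (0.942). *Zfp42* was nearest to *Urgcp* (0.884), *Ndufs4* (0.864) and *Hsp90aa1* (0.844).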

How the data were processed

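Per the labels and the study's methods, the authors sequenced single cells with a modified STRT-seq protocol, ran CASAVA 1.8, UMI-tools, STAR against mm10 and featureCounts of Subread, and deposited UMI counts per gene and cell. Genes were placed by GENCODE vM21.

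Cells with more than 2000 genes and 10000 to 1000000 UMIs were kept, clustered on 1000 variable genes without 90 listed genes (the members among them), and named from fixed markers. The 10 members and all lists were chosen with earlier results of these data known. UMIs were summed per pool and class of at least 10 cells and tested with edgeR 4.0.16 (TMM, filterByExpr, quasi-likelihood, Benjamini-Hochberg over all genes tested, 0.05). The clustering genes stayed in library sizes and out of the tests. SE is the log2 fold change over the root of F. Alternatives were other size factors, no filter on low counts, DESeq2 1.42.0, limma 3.58.1 on the mean CPM of cells, clustering at resolution 0.8, DNA-content gates, classes of at least 20 cells, no cell filter, the gate in place of the class, a replicate block, leaving out each pool and, chosen after seeing the data, adding the E6.5 cluster led by placental lactogen genes or the adult cluster led by Leydig cell genes.

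List genes could be named if they were called, had 10 CPM or more on one side and ranked among the top 2 of their list in their direction of change. Not every gene that these rules allowed is reported here. The 2 classes of one pool come from the same animals, and paired deviations correlated at 0.4405 to 0.6092 over 5 pairs of spermatid-like and spermatocyte-like pools and at 0.019 to 0.2623 over 6 pairs of germ and somatic pools.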

Additional observations from a re-analysis of the deposited data

Results flagged for a closer look

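Among 150 groups of 4 to 6 pools, 6 held a pool far from the others by Dixon's criterion, and chance alone flags about 1 in 20 groups. The first 2 of these below count in 2 comparisons each. In spermatocyte-like cells, *Nanog* stood at 0.544 CPM in adult replicate 2 against 0.105 to 0.219 CPM in the other pools, and *Tfcp2l1* at 1.15 CPM in PND30 replicate 1 against 2.01 to 2.24 CPM. In spermatid-like cells, *Pou5f1* stood at 2.37 CPM in adult replicate 2 against 0.886 to 1.28 CPM, and *Sox2* at 0.277 CPM in PND35 replicate 2 against at most 0.0316 CPM.

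The BV gate of E11.5 was used in no comparison. At E11.5, 31 cells positive for *Blimp1*-mVenus alone (gate BV) formed most of an unnamed cluster led by embryonic haemoglobin genes, with *Hbb-y* at 380.5 CPM beside *Dppa3* at 657 CPM. They had 9 of the 10 genes above both Negative gate pools of that day, with *Pou5f1* at 219.9 CPM, *Nanog* at 164 CPM, *Sox2* at 224 CPM, *Zfp42* at 247 CPM and *Esrrb* at 133 CPM. *Klf4*, at 9.81 CPM, was the exception.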

How the results depend on the processing

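Of 1368 values of the 10 genes under other settings, 1270 kept their direction and their side of the threshold, 34 lost a call, 24 gained one and 40 changed direction, 38 of these without a call on either side. The median log2 fold change of all genes moved with the scaling, from 0.22 with TMM to 0.32 with DESeq2-type size factors at arrest, from -0.21 to -0.37 in spermatogonia and from 0.15 to 0.28 in spermatocyte-like cells, where it was -0.32 with limma.

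The number of genes called between migrating and gonadal germ cells was 1251 with edgeR and 2066 with DESeq2, and 594 to 1400 with one pool left out, with 708 and 594 without replicates 1 and 2 of E12.5 and 728 without replicate 2 of E9.5. Between arrest and prospermatogonia it was 3539, 5356 with DESeq2, 5655 with limma and 1838 to 4733 with one pool left out, with 2187 and 1838 without replicates 1 and 2 of E18.5, 2187 and 2200 without those of PND0 and 1974 without replicate 1 of E15.5. The 13829 genes called between spermatid-like and spermatocyte-like cells became 4886 with the DNA-content gates, which change the classes, the number of pools and the time-points at once. With the replicate block the counts were 14676 there and 7343 between germ and somatic cells, against 7191, and the block changed no call of a member. The cause of the other shifts was not tested.

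Some members changed sign, most of them without a call. *Utf1* between epiblast-like and migrating cells was 0.00, -0.037 with other size factors and with DESeq2, -0.013 without a filter, -0.018 at resolution 0.8, -0.061 with limma and -0.079 to 0.046 with one pool left out. In prospermatogonia *Sox2*, at -1.24 with edgeR, was 0.30 and *Klf2* 0.081 with limma, and with one pool left out *Klf2* spanned -0.59 to 0.0057 and *Klf4* -0.24 to 0.15. In spermatogonia limma gave -0.27 for *Pou5f1*, -0.16 for *Zfp42* and -0.56 for *Tfcp2l1* (limma adjusted p = 0.00948), *Tfcp2l1* was -0.15 with other size factors and DESeq2 and -0.12 without a filter, and with one pool left out *Tfcp2l1* spanned -0.13 to 0.11 and *Klf2* -0.48 to 0.34. In gonadal cells leaving out one pool gave -0.062 to 0.25 for *Tfcp2l1*, -0.65 to 0.085 for *Klf2* and -0.05 to 0.10 for *Klf5*. In spermatid-like cells *Nanog* was -0.050 with limma and -0.00087 to 0.73 with one pool left out, and *Utf1* was -0.15 with the DNA-content gates and -0.0099 to 0.42 with one pool left out.

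Single pools decided some calls. *Zfp42* between epiblast-like and migrating cells was called without either pool of E9.5, and *Sox2* in gonadal cells without replicate 1 of E11.5 (-0.61). In spermatogonia, *Nanog* was called without replicate 1 of PND6 or of PND7, *Esrrb* without replicate 2 of PND5 or of E18.5, and *Klf4* without replicate 2 of PND7 or of PND0. In spermatocyte-like cells, *Sox2* lost its call without the PND30 pools, PND35 replicate 2, the adult pool or either pool of PND5, and *Klf2* without the PND30 pools, PND35 replicate 2 or PND6 replicate 1.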
